A study of Homo sapiens with 6 samples.

Results

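The genes described here are 30 genes of cholesterol synthesis, uptake and efflux, picked by gene symbol for their place in the pathway. The rule uses no measured value, but the members were chosen with earlier results of these data known. Of the 30 genes, 29 stood among the 12396 named genes of the deposited table, and ABCG1 was not analysed here. They fall into a mevalonate arm of 7 enzymes, a sterol arm of 11 enzymes, 4 genes of SREBP control and 8 genes of uptake and efflux, of which 7 were measured. RNA-seq compared JHH-4, an epithelial-like hepatocellular carcinoma line, in a control state whose genotype is given as WT with JHH-4 in which hsa-miR-372-3p was overexpressed from a plasmid carrying its primary transcript. Both groups were grown in EMEM with FBS, L-glutamine and antibiotic-antimycotic. The labels do not say what the control cells received, whether the plasmid was integrated, or how long it acted. Each group held 3 libraries that the series calls technical replicates of this 1 line, so every p-value measures only the spread between these libraries. Transcripts of the miR-372 gene itself were not analysed here, so the overexpression is known from the labels alone.

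Cells build cholesterol from acetyl-CoA. The mevalonate arm joins acetyl units and turns them into farnesyl diphosphate, which also feeds dolichol, ubiquinone and protein prenylation, and the sterol arm closes squalene into lanosterol and trims it to cholesterol. When sterol in the endoplasmic reticulum falls, SCAP carries the transcription factor SREBP-2, the product of SREBF2, to the Golgi for cleavage, and SREBP-2 then raises the genes of both arms. INSIG1 and INSIG2 hold SCAP back when sterol is plentiful. Oxysterols activate LXR receptors, which raise the exporters ABCA1 and ABCG1. In liver cells the pathway supplies lipoproteins and bile acids.

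Cholesterol genes moved in both directions and by small amounts. Of the 29 measured, 8 rose, 10 fell and 11 did not pass (edgeR quasi-likelihood test, Benjamini-Hochberg adjusted p under 0.05 over all 12396 genes). That is 62.1% called, against 54.5% of all genes. The risers were 27.6% of the members, against 26.8% of all genes, and the fallers 34.5%, against 27.7%. These shares lie near the background, and they do not set the cholesterol genes apart. HMGCS1 alone changed by at least 1.5-fold, 3.45% of the members, against 15.6% of all genes. In 21 of the 29 (72.4%) the libraries of one group lay wholly above those of the other, against 62.2% of all genes. The median log2 fold change of overexpression over control was −0.081, against 0.0013 over all genes, and the median absolute change was 0.180 against 0.217.

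Total counts in named genes ran from 46851245 to 60070397 per library. Groups separated on the first principal component (72.5% of the variance), and on the second control replicate 3 lay at −22.01, the remaining controls at 14.45 and 7.27. Without it, 9 members rose and 9 fell. Keratins of simple epithelia, KRT8, KRT18 and KRT19, were abundant, with a summed level of 3382 to 3490 CPM (counts scaled to 1000000 reads of TMM-adjusted library size) in control and 6248 to 6495 in overexpression. The other epithelial markers listed, EPCAM, CDH1, CLDN7 and ESRP1, were not analysed here. Of 15 hepatocyte markers, 7 were measured, and ALB and HNF4A were among the 8 not analysed here. The 7 summed to 89.2 to 98.3 CPM in control and 86.0 to 88.3 in overexpression. Of 15 markers of blood, endothelial and stromal cells, 5 were measured and none was at 0. Their sum was 133 to 155 CPM in control and 210 to 223 in overexpression. CD68 made up most of the control sum and did not pass (−0.01), nor did CD14 (−0.47) or COL1A2 (0.29). COL1A1 rose from 4.84 to 64.0 CPM and PDGFRB rose (1.16), while PTPRC, PECAM1 and VWF were not analysed here. These summed levels differed between the groups and so moved with every difference below, and their part in those differences was not tested.

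The microRNA is shown because its seed, bases 2 to 8 in capitals, decides which messenger RNAs it can pair with, and because 12 human mature miRNAs in the RefSeq table (GRCh38.p14) share that seed. Beside it stand a neighbour from the same locus and a member of the miR-302 cluster.
hsa-miR-372-3p: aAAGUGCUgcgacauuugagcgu
hsa-miR-373-3p: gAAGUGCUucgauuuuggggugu
hsa-miR-302a-3p: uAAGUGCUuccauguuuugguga
AGCACTT, the match to this seed, was sought in the longest annotated 3′ UTR of each gene (GENCODE 29, GRCh38). AGCACTTA, which adds the A opposite base 1, occurred in 0 of the 29 members, against 4.05% of 12192 genes searched. AGCACTT occurred in 6 members (20.7%), against 25.5% of all genes with AGCACTT or AGCACTTA. HMGCS1, NPC1 and SQLE held neither this match nor its 6-base core GCACTT. MSMO1 and TM7SF2 held the core alone, and MVK held a separate core match besides its AGCACTT. The 6 AGCACTT matches are given in capitals with 11 bases on either side.
ABCA1 (chr9:104781231-104781237, minus strand): ccctcattccaAGCACTTtacgctgtctg
DHCR7 (chr11:71435242-71435248, minus strand): ggagagagcccAGCACTTggcaggtgtcc
IDI1 (chr10:1040822-1040828, minus strand): aacatttccggAGCACTTgcagaggactt
MVK (chr12:109597088-109597094, plus strand): gtggctcactcAGCACTTggtgtggcctt
NPC2 (chr14:74480049-74480055, minus strand): tcattaaatgcAGCACTTggttagcagat
SOAT1 (chr1:179355943-179355949, plus strand): tcaaaaacagtAGCACTTcaaggaatggt
Among these 6 genes IDI1, ABCA1 and SOAT1 rose, MVK and DHCR7 fell, and NPC2 did not pass. Over all genes searched, 2618 held AGCACTT but not AGCACTTA, of which 711 rose and 778 fell. Of the 494 with AGCACTTA, 104 rose and 221 fell. With only 6 members, their directions say nothing about genes with a match in general. A match is a description of the sequence and not a site shown to be used. In JHH-4 the isoform that carries it was not determined.

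Promoter windows, from 250 bases before to 50 bases after a RefSeq start site (GRCh38.p14), were listed for 25 of the 29 members, and the first window listed for a gene was read. The names without one are ACAT2, FDFT1, SQLE and SCARB1. Sought on both strands were TCACCCCAC, a sterol regulatory element bound by SREBPs, its form TCACNCCAC with a free base, CCAAT, the box bound by NF-Y, which works with SREBPs, GGGCGG, the box bound by Sp1, and the LXR element DR4, a pair of AGGTCA copies spaced by 4 free bases. Only exact matches to these letters were sought, so a window without one may still hold a variant form. TCACCCCAC stood in the window of SREBF2 alone, 1 of 25 members (4%), against 0.425% of 27305 promoters of this length. TCACNCCAC again stood in SREBF2 only, against 1.15%. CCAAT occurred in 18 of 25 members (72%), against 35.7% of all promoters and 37% of those of genes tested here. GGGCGG occurred in 24 of 25 (96%), against 44.6% and 70.1%. No member window held an exact copy of this DR4 sequence, against 0.0183% of all promoters. As 0 of 9859 promoters of genes tested here held it, its absence does not set the members apart. Looser forms of DR4 were not sought, in ABCA1 or elsewhere. The IDI1 window, the first of 3 listed (chr10:1056655-1056954), held no CCAAT. It lies outside the gene's span in GENCODE 29 (chr10:1039152-1049170), and the other IDI1 windows were not read. With IDI1 counted by that window, CCAAT was held by 5 of 7 members that rose, 7 of 10 that fell and 6 of 8 that did not pass. The windows below show this for HMGCS1, MSMO1 and SREBF2, which rose, and for MVK and NSDHL, which fell. Exact copies of CCAAT, on either strand, and of TCACCCCAC are in capitals.
HMGCS1 (chr5:43313363-43313662, minus strand): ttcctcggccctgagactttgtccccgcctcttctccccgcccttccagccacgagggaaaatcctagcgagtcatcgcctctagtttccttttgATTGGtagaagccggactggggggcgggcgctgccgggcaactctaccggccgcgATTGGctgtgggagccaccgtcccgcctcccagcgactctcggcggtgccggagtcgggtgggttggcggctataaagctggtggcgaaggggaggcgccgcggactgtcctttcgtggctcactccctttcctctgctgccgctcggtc
MSMO1 (chr4:165327419-165327718, plus strand): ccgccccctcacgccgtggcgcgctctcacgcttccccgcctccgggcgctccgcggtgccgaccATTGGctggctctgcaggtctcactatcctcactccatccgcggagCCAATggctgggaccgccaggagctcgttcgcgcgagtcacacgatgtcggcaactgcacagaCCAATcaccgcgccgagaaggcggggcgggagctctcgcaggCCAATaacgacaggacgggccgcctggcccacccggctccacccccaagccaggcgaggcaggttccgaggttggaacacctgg
SREBF2 (chr22:41832855-41833154, plus strand): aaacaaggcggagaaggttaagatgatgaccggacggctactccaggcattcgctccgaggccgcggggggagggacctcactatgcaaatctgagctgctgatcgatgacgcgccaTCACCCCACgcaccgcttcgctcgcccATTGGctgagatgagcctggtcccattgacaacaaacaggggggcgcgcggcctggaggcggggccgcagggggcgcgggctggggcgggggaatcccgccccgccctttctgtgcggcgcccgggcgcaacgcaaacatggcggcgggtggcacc
MVK (chr12:109573544-109573843, plus strand): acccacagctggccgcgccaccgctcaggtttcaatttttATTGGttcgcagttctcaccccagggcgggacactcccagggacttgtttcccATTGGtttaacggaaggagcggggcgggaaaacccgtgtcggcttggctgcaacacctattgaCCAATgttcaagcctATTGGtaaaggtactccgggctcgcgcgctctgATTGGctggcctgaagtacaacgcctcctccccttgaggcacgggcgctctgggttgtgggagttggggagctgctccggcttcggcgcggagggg
NSDHL (chrX:152830813-152831112, plus strand): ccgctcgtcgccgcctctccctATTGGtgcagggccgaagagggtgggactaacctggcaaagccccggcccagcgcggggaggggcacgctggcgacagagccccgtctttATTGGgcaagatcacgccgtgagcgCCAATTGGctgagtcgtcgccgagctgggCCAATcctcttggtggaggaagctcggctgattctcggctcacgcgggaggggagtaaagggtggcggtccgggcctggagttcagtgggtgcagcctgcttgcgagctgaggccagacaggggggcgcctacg
HMGCS1 held 2 copies of CCAAT, MSMO1 4, SREBF2 1, MVK 5 and NSDHL 5, of which a pair on opposite strands overlap. The SREBF2 element starts 133 bases before the start site. MVK, at chr12:109573255-109598117, overlaps the neighbouring MMAB on the opposite strand by 620 bases, and MMAB, which makes adenosylcobalamin, also fell (−0.28 ± 0.075). Reads in that overlap cannot be assigned to one gene, because the library kit does not mark strand.

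In the mevalonate arm 3 enzymes rose, 2 fell and 2 did not pass. Counts by role, here and below, compare with 26.8% of all genes rising and 27.7% falling, and each rests on few genes. HMGCS1, which condenses acetoacetyl-CoA with acetyl-CoA to HMG-CoA, had 59.3, 61.0 and 67.5 CPM in control and 103, 91.1 and 105 in overexpression, in the order of replicates 1, 2 and 3 used throughout. Every overexpression library exceeded every control. HMGCS1 (ENSG00000112972, chromosome 5, 43289395 to 43313512, GRCh38) rose 1.59-fold, with a log2 fold change of 0.67 ± 0.068 (SE), a 95% confidence interval of 0.52 to 0.82 and adjusted p = 2.69e-05. Further along, MVD, which decarboxylates mevalonate diphosphate to isopentenyl diphosphate, had 47.8, 47.5 and 48.9 CPM in control and 62.5, 63.2 and 57.0 in overexpression. IDI1, the isomerase that makes dimethylallyl diphosphate, had 74.4, 73.7 and 81.8 CPM and then 91.4, 86.5 and 92.7. Neither gene's groups overlapped. MVD rose 1.27-fold (0.34 ± 0.052, adjusted p = 0.000375) and IDI1 rose 1.18-fold (0.24 ± 0.053, adjusted p = 0.00404).

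The kinases between these steps fell. MVK, mevalonate kinase, had 25.9, 25.2 and 27.0 CPM in control and 19.8, 20.0 and 18.3 in overexpression, with no overlap, and fell 1.34-fold (−0.43 ± 0.064, interval −0.57 to −0.28, adjusted p = 0.000370). PMVK, the next kinase, had 34.6, 34.3 and 40.6 CPM and then 32, 31.9 and 32.7. Its call was close to the threshold (−0.18 ± 0.068, adjusted p = 0.0477) and rested on control replicate 3, the highest library: without it the log2 fold change was −0.097 (adjusted p = 0.139). PMVK also missed the threshold without overexpression replicate 1, 2 or 3 (adjusted p = 0.113, 0.105 and 0.0875). FDPS, farnesyl diphosphate synthase, was listed at 106, 106 and 120 FPKM in control and 114, 112 and 109 in overexpression, the highest level per length among the members. Its groups overlapped, and its log2 fold change was −0.01, with an interval of −0.11 to 0.10. ACAT2, the cytosolic acetoacetyl-CoA thiolase, had a log2 fold change of 0.14, with an interval of 0.01 to 0.27 (adjusted p = 0.0719). Without control replicate 3 it was 0.20 (adjusted p = 0.00419). ACAT2 shares 558 bases with TCP1 on the opposite strand, and TCP1 rose (0.28). The strand of reads in that overlap is not known either.

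Among the 11 enzymes of the sterol arm 2 rose, 6 fell and 3 did not pass. SQLE, squalene epoxidase, which uses oxygen to commit squalene to sterols, had 138, 154 and 144 CPM in control and 191, 187 and 190 in overexpression. MSMO1, the sterol C4 methyl oxidase, had 41.2, 41.7 and 45.5 CPM and then 56.7, 50.3 and 58.2. In both genes all overexpression libraries were higher. SQLE rose 1.30-fold (0.38 ± 0.045, interval 0.28 to 0.48, adjusted p = 6.78e-05) and MSMO1 rose 1.29-fold (0.36 ± 0.065, interval 0.22 to 0.51, adjusted p = 0.00104).

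The enzymes that fell included both partners of MSMO1 in removing the C4 methyl groups. NSDHL, the C4 decarboxylase, had 39.7, 36.1 and 37.0 CPM in control and 30.9, 34.1 and 31.1 in overexpression, and HSD17B7, the 3-ketosteroid reductase, had 14.7, 14.3 and 14.1 and then 12.1, 11.8 and 12. Neither gene overlapped between groups. NSDHL fell 1.17-fold (−0.23 ± 0.059, adjusted p = 0.00814) and HSD17B7 fell 1.20-fold (−0.26 ± 0.071, adjusted p = 0.0111). TM7SF2, a C14 sterol reductase, had 20.7, 19.3 and 19.8 CPM and then 14.7, 15 and 16.3, the largest fall of this arm (−0.38 ± 0.071, adjusted p = 0.00142). EBP, which shifts a double bond in the sterol B ring, had 54.5, 56.0 and 65.8 CPM and then 50.3, 48.7 and 47.4 (−0.27 ± 0.071, adjusted p = 0.00934). Control replicate 3 was the highest EBP library, and without it EBP fell by 0.18 on the log2 scale.

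CYP51A1 and DHCR7 had the highest FPKM of the sterol arm in control and the smallest changes among its called enzymes. In overexpression SQLE (57.5 FPKM) exceeded DHCR7 (49.8). CYP51A1, the lanosterol C14 demethylase, was at 80.2, 75.0 and 80.2 FPKM in control and 73.8, 67.4 and 72.5 in overexpression, and DHCR7, the reductase that ends one branch at cholesterol, at 53.6, 54.9 and 53.2 FPKM and then 51.2, 50.8 and 47.5. CYP51A1 fell 1.09-fold (−0.13 ± 0.040, adjusted p = 0.0185), a call lost without control replicate 1 (adjusted p = 0.0623) or overexpression replicate 2 (0.0704). DHCR7 fell 1.09-fold (−0.13 ± 0.039, adjusted p = 0.0193), a call lost without control replicate 2 (adjusted p = 0.0604) or overexpression replicate 3 (0.0780). AC000120.3, an overlapping gene on the strand of CYP51A1 that shares 3030 bases with its span, rose (3.60), and how shared reads were assigned was not stated. The 3 enzymes that did not pass were FDFT1, squalene synthase (−0.06, interval −0.16 to 0.03), LSS, lanosterol synthase (−0.09, interval −0.19 to 0.01), and SC5D, the sterol C5 desaturase (−0.10, interval −0.28 to 0.07). LSS passed without control replicate 2 (−0.12, adjusted p = 0.0414).

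**Figure D1:**
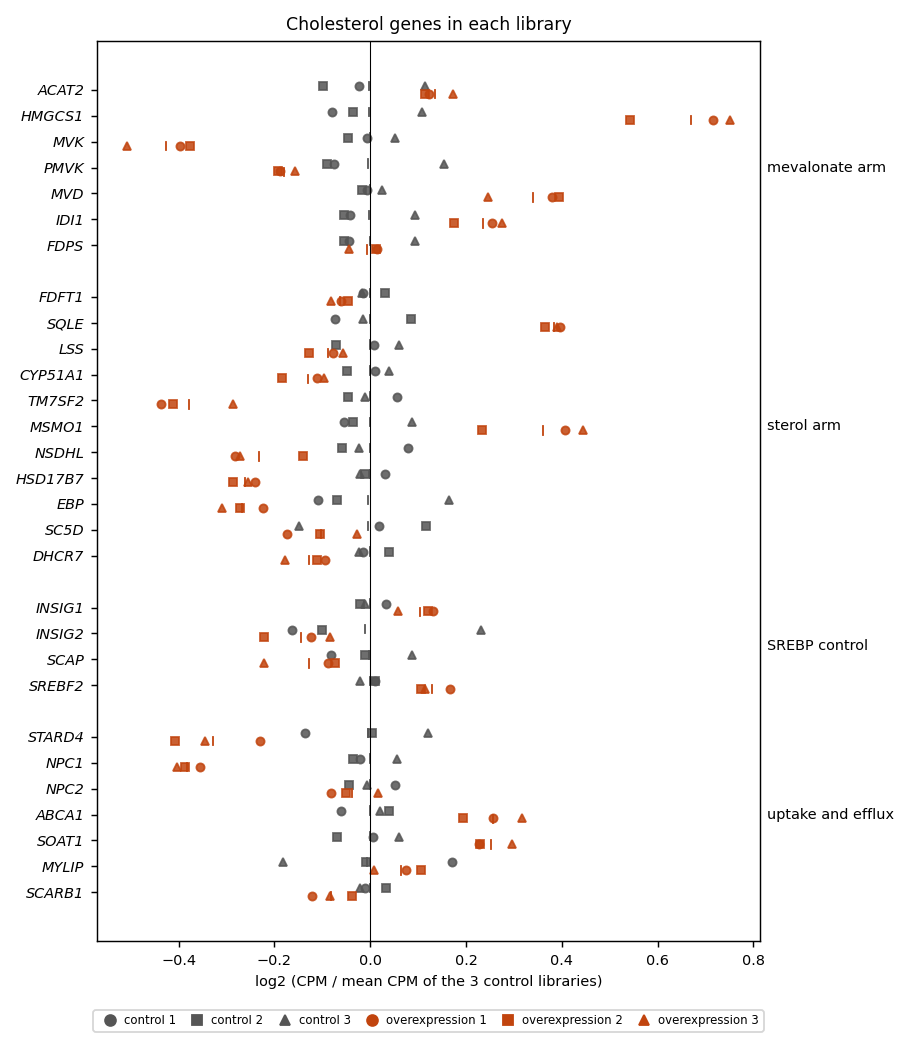
Points give log2 of a library's CPM over the mean CPM of the 3 control libraries for each of the 29 genes, grouped by role. Grey points are control, orange points are overexpression, shapes mark the replicate number, and short lines mark group means. HMGCS1 lies farthest right (59.3 to 67.5 CPM in control, 91.1 to 105 in overexpression), MVK and NPC1 have the lowest group means, and most genes of the sterol arm sit left of 0.

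Genes that control SREBP moved little, and 1 of 4 passed. SREBF2 had 211, 211 and 207 CPM in control and 235, 226 and 227 in overexpression. The groups did not overlap, and the rise was 1.09-fold (0.13 ± 0.035, interval 0.05 to 0.21, adjusted p = 0.0102), a call lost without overexpression replicate 1 (0.11, adjusted p = 0.0587). INSIG1, itself a well-known SREBP target, had 77.2, 74.4 and 74.9 CPM and then 82.7, 82.1 and 78.6. All 3 overexpression libraries lay above the controls, but the difference did not pass (0.10, interval 0.01 to 0.20, adjusted p = 0.0656). INSIG2 (−0.14, interval −0.38 to 0.09) and SCAP (−0.13, interval −0.26 to 0.01) overlapped between groups. SREBF1, which codes for the SREBP isoforms that favour fatty acid genes, went the other way from SREBF2. The ratio of SREBF2 to SREBF1 counts was 1.37, 1.29 and 1.31 in control and 2.54, 2.62 and 2.56 in overexpression.

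Uptake and efflux genes split evenly, with 2 higher, 2 lower and 3 not passing. NPC1, the membrane protein that moves cholesterol out of late endosomes and lysosomes, had 405, 400 and 427 CPM in control and 321, 314 and 310 in overexpression. No library overlapped. NPC1 (ENSG00000141458, chromosome 18, 23506184 to 23586898) fell 1.30-fold (−0.38 ± 0.037, interval −0.47 to −0.30, adjusted p = 2.11e-05). NPC2, the soluble protein that hands cholesterol to NPC1, was at 106, 96.1 and 102 FPKM in control and 92.3, 97.4 and 104 in overexpression, with overlapping groups (−0.04, interval −0.14 to 0.06). STARD4, a soluble carrier of sterol between membranes, had 30.6, 33.8 and 36.6 CPM and then 28.7, 25.4 and 26.5. All overexpression libraries were lower, and STARD4 fell 1.25-fold (−0.33 ± 0.075, adjusted p = 0.00469).

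The genes that rose here store or export cholesterol. SOAT1, which esterifies it for lipid droplets, had 125, 119 and 130 CPM in control and 146, 146 and 153 in overexpression. ABCA1, which loads it onto apolipoprotein A-I, had 32.5, 34.9 and 34.4 CPM and then 40.5, 38.8 and 42.3. Neither gene overlapped between groups. SOAT1 rose 1.19-fold (0.25 ± 0.044, adjusted p = 0.000881) and ABCA1 rose 1.20-fold (0.26 ± 0.052, adjusted p = 0.00223). SCARB1, the receptor for high-density lipoprotein, had a log2 fold change of −0.08 (interval −0.17 to 0.01). NPC1, whose fall is given above, shares 25624 bases of its span with RMC1 on the opposite strand, which did not pass (0.08). As the kit does not mark strand, reads in that overlap cannot be assigned to one gene. Their part in the fall of NPC1 was not tested. MYLIP, a ubiquitin ligase for lipoprotein receptors, was the least abundant member at 1.21 ± 0.151 FPKM (SD, n = 3) in control, with 132 to 163 counts there and 168 to 195 in overexpression. Its interval of −0.29 to 0.42 is the widest among the members.

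Levels per length spanned a wide range and changed little as sums. In control, FDPS (111 ± 8.09 FPKM, SD, n = 3) and NPC2 (101 ± 4.94) led, followed by CYP51A1 (78.5 ± 3.01) and NPC1 (75.8 ± 3.20), whose means differed by less than the SD of either. DHCR7 (53.9 ± 0.870), SQLE (43.8 ± 2.17) and SREBF2 (35.6 ± 0.235) came next, and ABCA1 (2.88 ± 0.0994) and MYLIP closed the order. FDPS stood at the 95.8th percentile of all genes by control FPKM and ABCA1 at the 24.0th. Summed FPKM of the mevalonate arm was 228, 226 and 256 in control and 260, 253 and 254 in overexpression, so control replicate 3 lay among the overexpression libraries. For the sterol arm the sums were 317, 311 and 324 and then 316, 303 and 310, which overlapped. For uptake and efflux they were 240, 227 and 242 and then 213, 215 and 222, with every overexpression library lower. NPC1 makes up most of that gap. Fewer transcripts per cell and a change in the mix of cells cannot be told apart in such bulk libraries.

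**Figure D2:**
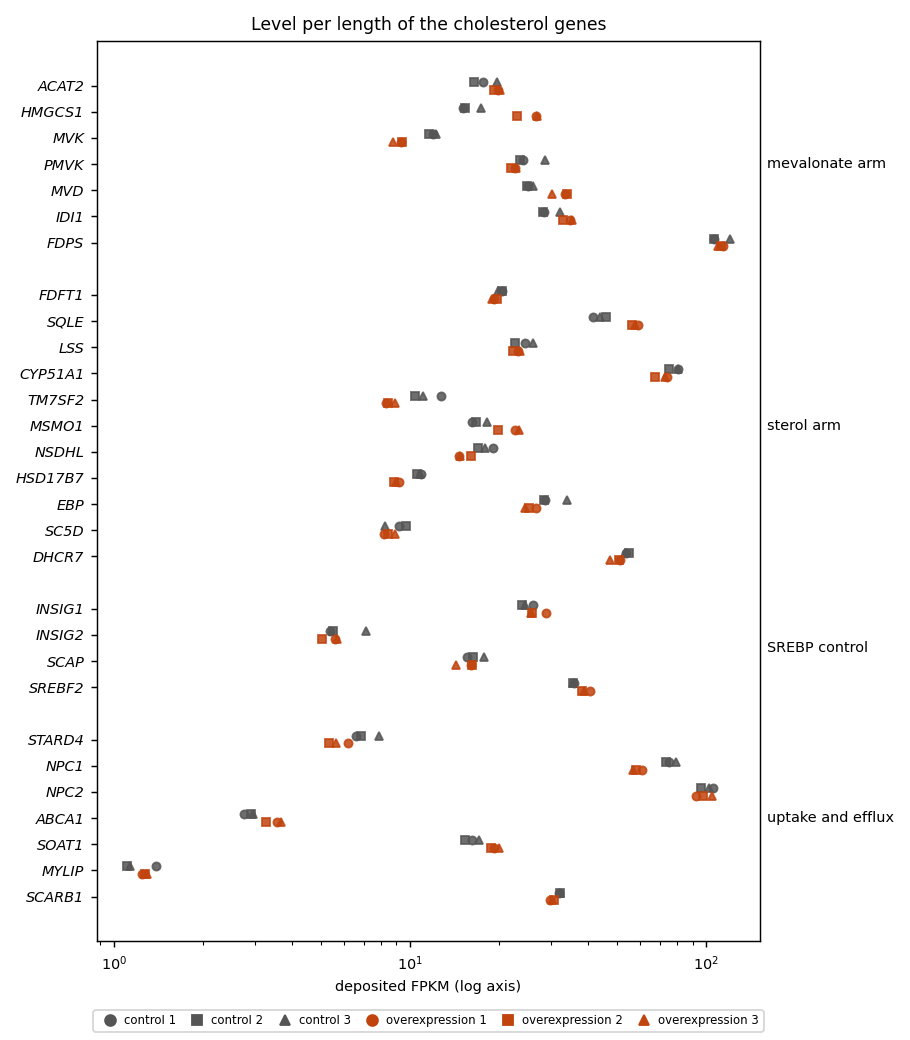
Each point is the deposited FPKM of a gene in a library, on a log axis, with control in grey, overexpression in orange and shapes for replicate numbers. FDPS and NPC2 lie highest in both groups (111 and 101 FPKM in control), and MYLIP lies lowest at 1.21 ± 0.151 in control.

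Ratios of counts within a library do not depend on library scaling. The pairs were picked after their values were seen, most of them as a gene that rose over one that fell or did not pass, so they describe these libraries and carry no test. HMGCS1 to MVK was 2.29, 2.42 and 2.50 in control and 5.20, 4.55 and 5.76 in overexpression. MSMO1 to NSDHL was 1.04, 1.16 and 1.23 and then 1.84, 1.48 and 1.87. SQLE to LSS, the next enzyme, was 1.06, 1.25 and 1.06 and then 1.56, 1.58 and 1.53. On the transport side, SOAT1 to NPC1 was 0.309, 0.296 and 0.304 and then 0.454, 0.464 and 0.492, while NPC1 to NPC2 was 3.29, 3.48 and 3.61 and then 2.86, 2.74 and 2.58. These 5 pairs did not overlap between groups. INSIG1 to INSIG2 did, at 5.00, 4.62 and 3.69 in control and 5.22, 5.54 and 4.82 in overexpression.

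**Figure D3:**
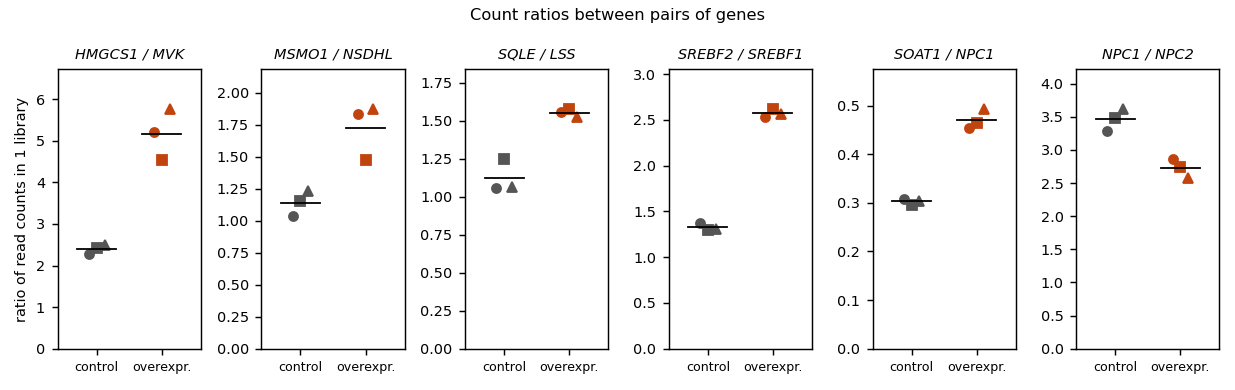
Each panel plots the ratio of read counts of 2 genes within a library, with control in grey, overexpression in orange, shapes for replicate numbers and lines at group means. Every vertical axis starts at 0. The mean ratio of HMGCS1 to MVK was 2.40 in control and 5.17 in overexpression, and that of NPC1 to NPC2 was 3.46 and 2.73.

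Related lists of the pathway differed in balance. Counts below use the same test, against 26.8% of all genes rising and 27.7% falling. Other sterol-responsive genes fell in 11 of 15 cases and rose in 1, with a median log2 fold change of −0.278. LPIN1, a phosphatidate phosphatase (−0.88 ± 0.045), FADS2, a fatty acid desaturase (−0.84 ± 0.050), and PNPLA3, a lipid droplet protein (−0.65 ± 0.085), fell most, and FASN, fatty acid synthase, was the 1 that rose (0.20 ± 0.034). Most genes of this list serve fatty acid and phospholipid metabolism rather than sterol synthesis. ERG28, which tethers the C4 demethylation enzymes, fell as well (−0.22 ± 0.076).

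On the list of SREBP processing and sterol-regulated degradation, 7 of 21 measured genes rose and 4 fell, with a median of 0.096. SEC23A, a subunit of the COPII coat that carries SCAP from the endoplasmic reticulum, fell 2.02-fold (−1.02 ± 0.059). It had 45.1, 40.8 and 44.2 CPM in control and 22.3, 21.4 and 20.6 in overexpression. FBXW7, the ubiquitin ligase subunit that marks nuclear SREBPs for degradation, rose 1.78-fold (0.83 ± 0.074), and SREBF1 fell (−0.83 ± 0.043). MBTPS1, the protease that makes the first Golgi cut in SREBPs, rose 1.10-fold (0.13 ± 0.038).

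Of 11 measured genes among LXR receptors, partners and targets, 4 rose and 6 fell, with a median of −0.154. TTC39B, whose product lowers LXR protein, fell 2.87-fold (−1.52 ± 0.132), from 8.55 ± 0.799 to 2.98 ± 0.267 CPM (SD, n = 3), and the LXR target SMPDL3A fell 1.92-fold (−0.94 ± 0.133). SREBF1, also a target of LXR, stands on this list too.

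Bile acid and oxysterol enzymes fell in 6 of the 7 measured of 17 listed and rose in none (median −0.545). All 7 had negative log2 fold changes in edgeR, so 0 rose at an unadjusted p under 0.05 too, and 0 rose in DESeq2 and in limma-voom. ACOX2, which shortens the bile acid side chain in peroxisomes (−1.09 ± 0.159), CYP27A1, the sterol 27-hydroxylase (−1.01 ± 0.050), and AMACR, a racemase of bile acid intermediates (−0.93 ± 0.081), fell most. CYP27A1 had 153, 145 and 162 CPM in control and 78.4, 73.3 and 77.0 in overexpression. The other 10 genes, CYP7A1 among them, were not analysed here.

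Sterol transport proteins and the isoprenoid branches showed no such imbalance. Of 27 measured transport proteins 7 rose and 8 fell (median −0.098). GRAMD1B, which moves cholesterol from the plasma membrane to the endoplasmic reticulum, fell 2.64-fold (−1.40 ± 0.151), and LIPA, the lysosomal acid lipase that frees cholesterol from esters, fell 1.49-fold (−0.57 ± 0.045). LRP1, a receptor for lipoprotein remnants, rose 1.79-fold (0.84 ± 0.043). Of 20 genes on the non-sterol isoprenoid branches 5 rose and 5 fell (median −0.019), led by COQ2, an enzyme of ubiquinone synthesis (−0.62 ± 0.087), the CAAX protease RCE1 (0.47 ± 0.061) and FNTB, the beta subunit of farnesyltransferase (−0.37 ± 0.079).

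**Figure D4:**
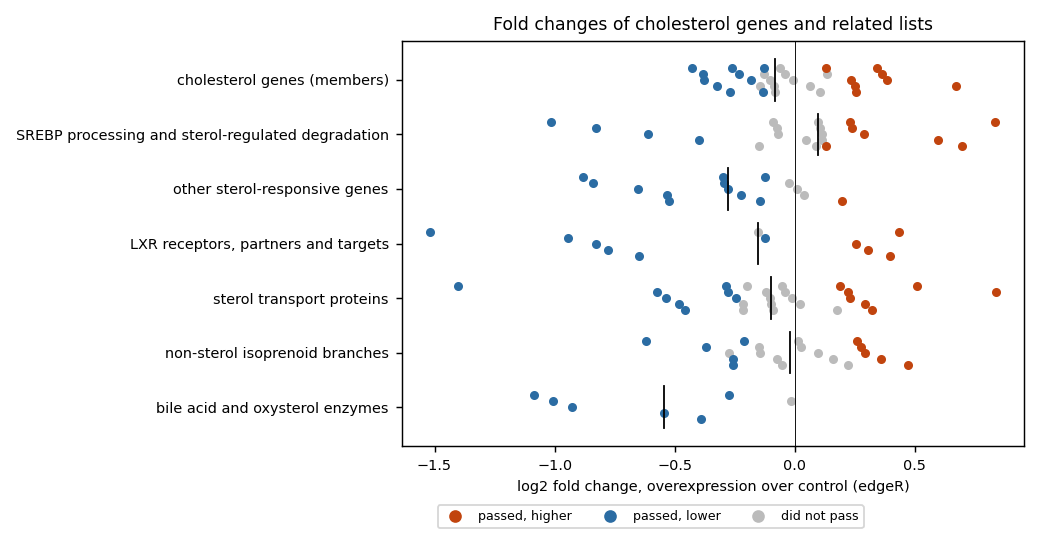
Each point is a gene's log2 fold change of overexpression over control, in orange or blue where it passed as higher or lower and in grey where it did not, spread vertically for legibility only. Black lines mark list medians, which run from −0.545 for bile acid and oxysterol enzymes to 0.096 for SREBP processing and sterol-regulated degradation. The cholesterol genes lie within −0.43 and 0.67.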

How the data were processed

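Per the labels' protocols, libraries came from column-purified total RNA with NEBNext Ultra RNA, a kit that keeps no strand. The submitters' processing notes name HISAT2 2.0.4, StringTie 2.2.1 and DESeq2 1.38.3 with GRCh38, without their roles. Annotation, counting and filters were not stated there. The authors deposited raw read counts, FPKM scaled to gene length and depth, and per gene a log2 fold change with its p-value. Deposited log2 fold changes of the members differed from those computed here by at most 0.000728, and the deposited p-value was not used.

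Of 14006 rows, 1610 name no gene and were left out (2.64 to 3.63% of counts). The symbols of 9 genes were restored by ID. No per-sample column lacked a sample (0). The test on the counts of 12396 genes used edgeR 4.0.16 under R 4.3.3 (TMM, filterByExpr, which removed 0 genes, quasi-likelihood F-test, group only, Benjamini-Hochberg over all genes, threshold 0.05). Standard errors and 95% intervals come from that fit. DESeq2 1.42.0 and limma 3.58.1 served as alternatives. The fit was tested on simulated data. FPKM was used to compare levels between genes, with no test. No 2 libraries of a group were alike within sampling noise (chi-square over degrees of freedom 6.86 to 38.6).

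Named genes are all members and, from each related list, up to 3 that passed with the largest absolute change. Library values are given for members changed by at least 0.5 (log2) and for the highest FPKM of each role. Other members shown by library, other genes named from the lists, and all ratio pairs were chosen after their values were seen. The members and lists were chosen with earlier results of these data known. 3′ UTRs are those of the protein-coding transcript with the longest one, at least 50 nt.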

Additional observations from a re-analysis of the deposited data

How the results depend on the processing

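Results were recomputed under 15 alternatives: other scalings, DESeq2, limma-voom, log2 of the deposited FPKM plus 1, no filter or a mean of at least 5 CPM, the unnamed rows kept, a replicate block, and each library left out. Of the 18 members called, 14 stayed called in the same direction under all of them. CYP51A1, DHCR7, PMVK and SREBF2 lost the call under at least 1, and ACAT2 and LSS gained it under at least 1. Leaving out a library gave 7 to 9 members higher and 8 to 10 lower. With FPKM, 8 rose and 7 fell, because PMVK, CYP51A1 and DHCR7 missed the threshold (adjusted p = 0.101, 0.0549 and 0.0677). PMVK also missed it with total-count scaling (0.0532), limma-voom (0.0558) and the unnamed rows kept (0.0581). The sign changed only for FDPS and MYLIP, which were never called: FDPS was 0.012 with FPKM, 0.042 without control replicate 3 and 0.013 without overexpression replicate 3 (−0.029 to 0.042 over left-out libraries), and MYLIP was −0.021 without control replicate 3 (−0.021 to 0.154). The 5 CPM filter removed MYLIP, so it has no value there. No scaling moved the median of all genes by over 0.1.

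The replicate numbers do not pair the libraries: deviations from the group means correlated at −0.136, −0.052 and 0.103 for numbers 1, 2 and 3. With a replicate block 9 members rose and 10 fell, ACAT2 being the addition (adjusted p = 0.0454), and 3381 of all genes rose and 3428 fell. Depth limits MYLIP most, the member with the fewest counts. Because the libraries are called technical replicates, no result here speaks to variation between cultures.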

Other observations

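Some paralogs and partner subunits in the related lists had opposite signs, and others shared theirs. Those given were picked after their values were seen and are given as values only. FADS1 and FADS2 both fell (−0.53 and −0.84), and RXRA and RXRB both rose (0.40 and 0.31). SAR1A and SAR1B code for the GTPases that start COPII coat assembly. SAR1A rose from 73.1 ± 3.10 to 110 ± 4.35 CPM (SD, n = 3) and SAR1B fell from 41.3 ± 3.02 to 27.0 ± 1.70, with log2 fold changes of 0.60 ± 0.049 and −0.61 ± 0.069 (SE). VAPB rose (0.29 ± 0.040) and VAPA fell (−0.28 ± 0.034), both being anchors of the endoplasmic reticulum for sterol carriers. FNTA, the alpha subunit of farnesyltransferase, rose (0.36 ± 0.044) while its partner FNTB fell. RNF145, a sterol-responsive ubiquitin ligase, rose 1.62-fold (0.70 ± 0.071), from 54.1 ± 6.03 to 87.7 ± 1.33 CPM (SD, n = 3).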
